A study of Mus musculus with 4 samples.

Results

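The Vip interneurons described here were 306 of 30515 cortical nuclei of GCLC-KO mice, chosen by their transcripts. A nucleus was taken if it passed the study's filter (no more than 7000 genes detected and no more than 1% of transcripts from mitochondria), held 2 or more unique molecular identifiers (UMIs, each a counted transcript) of Gad1 plus Gad2, 0 of Slc17a7, 2 or more of Vip, 1 or more of Adarb2 and fewer than 3 of Sst. The 4 libraries held 78, 77, 81 and 70 of them. Here and below, 4 values in a row belong to the 3-month libraries 3M-1 and 3M-2, then to the 6-month libraries 6M-1 and 6M-2, in this order. All 4 mice carried the same genotype, a floxed Gclc allele (strain C57BL/6NTac-Gclctm1a(EUCOMM)Wtsi/WtsiCnbc) crossed with CaMKII-Cre, and they had received no treatment. The mice were 3 or 6 months old, with 2 at each age and 1 mouse per library. Nuclei were stained with DAPI and sorted as singlets, from cortical regions rich in rod-shaped microglia, and their 3′ transcript ends were sequenced on the 10x Genomics Chromium platform. No wild-type library was analysed here, so every comparison lies within knockout animals. CaMKII-Cre acts mainly in forebrain excitatory neurons, and no file here says whether it acted in a given interneuron.

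Vip interneurons are inhibitory neurons that arise in the caudal ganglionic eminence, and they release GABA together with the vasoactive intestinal peptide encoded by Vip. In the cortex they are known for inhibiting other interneurons, above all those that express Sst, so that their activity releases excitatory neurons from inhibition. They answer serotonin, acetylcholine and noradrenaline, and they include small bipolar cells with calretinin (Calb2) and larger basket cells with cholecystokinin (Cck).

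The Vip nuclei held 622687, 493635, 680891 and 552481 UMIs, and the median nucleus held 7325, 6070, 7032 and 7046. The deposited libraries held 64857084, 64299223, 71255054 and 63429297 UMIs in all. Another 3 interneuron gates were set on the same GABAergic nuclei for comparison: Lamp5 (149 nuclei), Sst (187) and Pvalb (145). Depth differed between gates, since the median Sst nucleus held 13863, 9644, 10486 and 11180 UMIs. The Sst gate was also uneven, with 11 nuclei in 3M-1 and 86 in 6M-1. No cell barcode was shared between libraries among the Vip nuclei, against 93 over the 6 pairs of libraries among all nuclei. The doublet caller Scrublet marked 34 of the 306 Vip nuclei, with 3, 6, 18 and 7 in the 4 libraries, so the library 6M-1 stood apart.

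Gclc, the targeted gene, encodes the catalytic subunit of the enzyme that makes the first step of glutathione synthesis. Its level in the summed Vip nuclei was 33.7, 30.4, 29.4 and 34.4 CPM (counts scaled to 1000000 UMIs per gate and library). The mean was 32.0 ± 2.46 CPM (SD, n = 4), beside 34.7 ± 4.23 in the Lamp5, 47.1 ± 12.0 in the Sst and 46.5 ± 14.6 in the Pvalb gate. None of the 3 differences passed the test: the log2 fold change was -0.08 against Lamp5, -0.40 against Sst and -0.50 against Pvalb (edgeR adjusted p = 0.9, 0.29 and 0.11). Reads at the 3′ end need not lie in the deleted stretch, and with no wild-type library these levels do not check the deletion.

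The values that chose the nuclei are given as a description. Vip lies at chr10:5639218-5647617 on the plus strand (GRCm38). Its level was 967, 1051, 1044 and 968 CPM, and the median Vip nucleus held 5, 5, 6 and 6 UMIs of it, within a range of 2 to 41. Adarb2, an RNA-editing relative that marks interneurons of the caudal eminence, had medians of 96, 54, 78 and 68 UMIs per nucleus. Nuclei just inside and just outside the threshold were few: of the GABAergic nuclei with Adarb2, 16, 10, 9 and 11 held exactly 2 Vip UMIs and 16, 20, 16 and 18 held exactly 1. Igf1 in the nuclei with 2 Vip UMIs was 249, 395, 358 and 627 CPM, and in those with 1 it was 194, 342, 188 and 145 CPM. Prox1 in these 2 sets was 290, 338.5, 311 and 274 CPM, and 108, 243, 68.2 and 153.5 CPM. In nuclei with 0 Vip UMIs Igf1 was 94.7, 161, 135 and 151 CPM and Prox1 66.9, 94.3, 82.1 and 72.5 CPM. The nuclei with 1 UMI lay above these for both genes in 3M-1 and 3M-2, and below them for Prox1 in 6M-1 and for Igf1 in 6M-2.

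The 250 bases before the start of 3 genes are shown because Vip defines the cells and because Crispld2 and Tac2 were hardly found in the other gates. They come from RefSeq (GRCm38.p6), 5′ to 3′ on the strand of the gene, at chr10:5638968-5639217 for Vip, chr10:127724228-127724477 for Tac2 and chr8:119992188-119992437 for Crispld2, all on the plus strand. Of 5 genes asked for, these 3 were matched. Capitals mark the letters TGACG or CGTCA, the core of the cyclic AMP response element read on either strand.
Vip: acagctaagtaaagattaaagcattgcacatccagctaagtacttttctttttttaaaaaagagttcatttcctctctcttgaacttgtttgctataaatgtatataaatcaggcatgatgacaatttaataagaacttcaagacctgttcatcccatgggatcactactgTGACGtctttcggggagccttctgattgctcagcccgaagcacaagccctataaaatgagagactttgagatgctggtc
Tac2: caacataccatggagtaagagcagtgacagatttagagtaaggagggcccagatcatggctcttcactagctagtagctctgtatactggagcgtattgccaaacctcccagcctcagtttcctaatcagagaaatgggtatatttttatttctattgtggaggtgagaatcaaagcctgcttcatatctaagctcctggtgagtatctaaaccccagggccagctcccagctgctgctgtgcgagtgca
Crispld2: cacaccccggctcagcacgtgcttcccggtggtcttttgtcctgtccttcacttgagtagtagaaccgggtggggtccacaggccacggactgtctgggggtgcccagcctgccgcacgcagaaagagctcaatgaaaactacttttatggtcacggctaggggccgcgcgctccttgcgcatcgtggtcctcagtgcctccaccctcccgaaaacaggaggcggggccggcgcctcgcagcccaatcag
Cyclic AMP is known to raise Vip transcription through such an element. The window of Vip held the letters 1 time, beginning 79 bases before the start. The windows of Tac2 and Crispld2 held none. Of 32851 windows of this length, 17.8% held the letters, so their presence in 1 of 3 is a description of the sequence.

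The label was checked against marker genes that the rule had not used. Oligodendrocyte nuclei, which should lack these transcripts, served as the measure of free RNA, but their median depth was only 2907, 1742, 2038 and 2370 UMIs. Igf1, the gene of insulin-like growth factor 1, had a UMI in 83.7% of the 306 Vip nuclei and in 0.833% of the oligodendrocyte nuclei. Nuclei were also thinned to 3000 UMIs, for which 296 of 306 Vip and 1044 of 4082 oligodendrocyte nuclei were deep enough. The share with Igf1 among them was 66.2% and 1.63%. Npas1, a transcription factor of the caudal eminence, was found in 41.2% against 0.539%, and Nr2f2, another, in 33.7% against 1.54%. Peptide genes were found in fewer nuclei: Crh, Tac2 and Penk in 28.4%, 27.5% and 22.9% of Vip nuclei, against 0.367%, 0.392% and 0.833%. Calb2 was found in 19.3%, the serotonin receptor gene Htr3a in 12.1% and the acetylcholine synthesis gene Chat in 9.15%, against 0.294%, 0.049% and 0.0735%. These shares lay far above those of the oligodendrocyte nuclei. Some of these genes were also found in the neighbouring gates: Igf1 in 67.8% of Lamp5 and 42.2% of Sst nuclei, Npas1 in 35.8% of Sst nuclei, and Nr2f2 in 24.2% of Lamp5 and 13.4% of Sst nuclei. Crh, Tac2, Penk, Calb2, Htr3a and Chat were found in 0 to 4.81% of the nuclei of each of these gates. Prox1, a homeobox factor of the caudal eminence, was found in 73.9% of Vip and 52.3% of Lamp5 nuclei, against 2.67% of Sst and 3.45% of Pvalb nuclei. The 27.4% of oligodendrocyte nuclei with Prox1 is thus no measure of its free RNA. Cck stood closest to the background, in 24.2% against 8.75% (and in 24.2% of Lamp5 nuclei), and in 13.9% against 7.28% of the nuclei thinned to 3000 UMIs. The defining markers of the neighbouring types were nearly absent, since 2 or more UMIs of Pvalb were found in 0, 0, 1 and 0 Vip nuclei and of Lamp5 in 0, 0, 2 and 1. The nuclei are therefore called Vip interneurons here.

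Vip nuclei made up 10.5%, 9.66%, 8.15% and 10.7% of GABAergic nuclei, and the Wilson 95% interval of the first ran from 8.46 to 12.9. The ages overlapped, as the lowest and the highest share both came from mice at 6 months. The mean share was 10.1% ± 0.562 (SD, n = 2) at 3 months and 9.43% ± 1.82 (n = 2) at 6 months, a difference of -0.624 percentage points. A two-sided exact permutation test over the 4 libraries gave p = 1, where the smallest p this design allows is 0.33. Within the labels' batch 1 the share was lower at 6 than at 3 months, and within batch 2 it was higher. Of all filtered nuclei, Vip nuclei were 1.15%, 0.88%, 0.999% and 1.02%. Without the library 6M-1 the difference in the share of GABAergic nuclei turned to 0.661 points. Intervals cover counting error only, and a share of sorted nuclei cannot tell fewer Vip cells from more cells of another type.

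**Figure D1:**
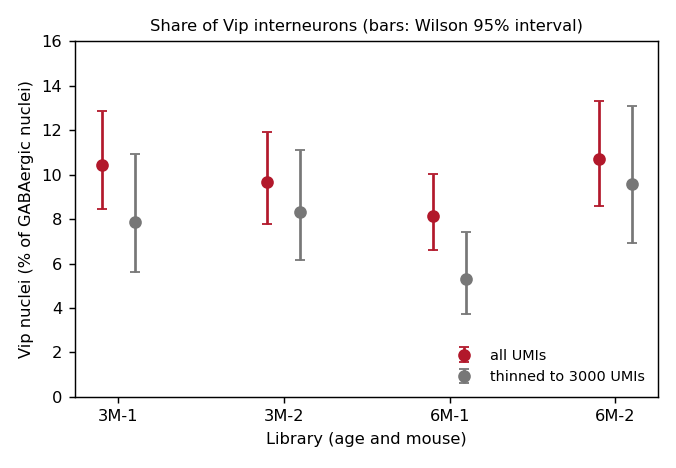
Share of GABAergic nuclei that passed the Vip rule (y axis, percent) in each of the 4 libraries (x axis), with all UMIs (red) and with nuclei thinned to 3000 UMIs (grey); points are single libraries and bars are Wilson 95% intervals. The thinned shares were 7.87%, 8.30%, 5.28% and 9.58%, and in both measures the library 6M-1 was lowest and 6M-2 highest.

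Next, genes were compared between the Vip nuclei and each of the other interneuron gates. UMIs were summed per gate and library, and edgeR tested each difference with the mouse as a block, at an adjusted p under 0.05 over 7993 genes. Of these, 256 (3.2%) were higher in Vip nuclei than in each of the 3 other gates, and 143 (1.79%) were lower than in each. Against single gates, 737 genes (9.22%) were higher and 727 (9.1%) lower than in Lamp5 nuclei, 748 (9.36%) and 711 (8.9%) against Sst, and 1234 (15.4%) and 1211 (15.2%) against Pvalb. In either direction these came to 18.3%, 18.3% and 30.6% of the genes tested. The median log2 fold change over all genes was -0.00121, 0.00558 and 0.00706 against Lamp5, Sst and Pvalb. A gene could pass the filter on low counts through the Vip gate alone, or through other gates alone. Counts over a list, and fitted values of genes with few UMIs on either side, are therefore descriptions.

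Transcription factors of the caudal and medial eminence came first. Of 4 caudal factors listed, 3 were tested, with median log2 fold changes of 1.09, 1.83 and 5.08 against Lamp5, Sst and Pvalb, and Prox1 and Nr2f2 were higher in Vip nuclei than in all 3 gates. Prox1 stood at 276, 267, 201 and 243 CPM in the 4 libraries, against 120 ± 29.1 in Lamp5, 2.52 in Sst and 2.69 in Pvalb nuclei. Its log2 fold change was 1.09 ± 0.17 (SE) against Lamp5, 6.53 ± 0.33 against Sst and 6.41 ± 0.33 against Pvalb (edgeR adjusted p = 2e-05, 4.9e-14 and 2.3e-14). No Vip library overlapped the Sst or Pvalb libraries. Npas1 was at 106, 97.2, 89.6 and 92.3 CPM, higher than in Lamp5 (3.40) and Pvalb (5.08), while its difference from Sst (0.53, edgeR adjusted p = 0.19) did not pass. Of 5 medial factors, 4 were tested, and all 4 were lower than in Sst and in Pvalb nuclei, with medians of -0.06, -4.01 and -3.61. Lhx6, which directs the migration and identity of medial interneurons, was at 1.61, 0, 4.41 and 3.62 CPM, against 13.0 in Lamp5, 93.4 in Sst and 64.3 in Pvalb. It was the one medial factor lower than in all 3 gates (log2 -2.22 ± 0.56, -5.03 ± 0.35 and -4.51 ± 0.37). Lhx6 had only 6 UMIs over all Vip nuclei and passed the filter on low counts through gates where it was higher. Its fitted values are therefore descriptions. Sox6 did not differ by the test from Lamp5 (0.08, edgeR adjusted p = 0.95) but was lower than in Sst (-4.63) and Pvalb (-4.31). Dlx1, a homeobox factor of GABAergic fate, was higher against all 3 gates (1.16, 1.58 and 2.09).

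Of 14 neuropeptide genes listed, 6 were tested (median log2 fold changes 2.98, 2.95 and 4.16), and Crh, Tac2, Penk and Cck were higher in Vip nuclei than in each other gate. Crh, which encodes corticotropin-releasing hormone (chr3:19693401-19695396, minus strand), was at 62.6, 42.5, 45.5 and 76.0 CPM, against 0.618 in Lamp5, 3.55 ± 3.3 in Sst and 0.578 in Pvalb. Only 1 Crh UMI was counted in Lamp5 and 1 in Pvalb, so its pooled level was 78.6 times that of Lamp5 (interval 13.9 to 3129) and 106 times that of Pvalb (18.7 to 4223). Its log2 fold change against Sst was 3.74 ± 0.42. Every Vip library lay above every library of the other gates. Crh, Tac2 and Penk had few UMIs in the other gates and passed the filter on low counts through the Vip gate alone. Their fitted values are therefore descriptions. Tac2, the gene of neurokinin B (chr10:127724478-127731768, plus strand), was at 45.0, 93.2, 58.7 and 59.7 CPM, against 2.66 in Lamp5 (4.42 ± 0.52). The call against Lamp5 was made by edgeR and not by DESeq2 (adjusted p = 0.18). No Tac2 UMI was counted in the Sst and Pvalb gates, so that its level was at least 44.1-fold higher than in Sst and at least 39.1-fold higher than in Pvalb, at a floor of 3 UMIs over the gate. Penk, the enkephalin gene (chr4:4133531-4138819, minus strand), was at 72.3, 68.9, 23.5 and 41.6 CPM, with a log2 fold change of 3.16 against Sst. With 1 Penk UMI in Lamp5 and 1 in Pvalb, its pooled level was 69.8 times that of Lamp5 (12.3 to 2779) and 94.2 times that of Pvalb (16.6 to 3750). Pthlh, the gene of a hormone related to parathyroid hormone, did not pass the filter and was not tested. It had 47 UMIs in Vip nuclei, 0 in Lamp5 (at least 9.26-fold higher), 1 in Sst (42.3 times, 7.23 to 1706) and 6 in Pvalb (a pooled level of 3.20 CPM). Cck was at 51.4, 81.0, 83.7 and 63.4 CPM, with 1.16, 2.75 and 2.35. In oligodendrocyte nuclei Cck stood at 26.3, 62.9, 33.1 and 41.3 CPM, and the part of free RNA in its level was not tested. Npy went the other way against 2 gates: at 11.2, 36.5, 27.9 and 38.0 CPM it was lower than in Lamp5 (-2.34) and Sst (-2.64), and higher than in Pvalb (1.42, edgeR adjusted p = 0.016).

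**Figure D2:**
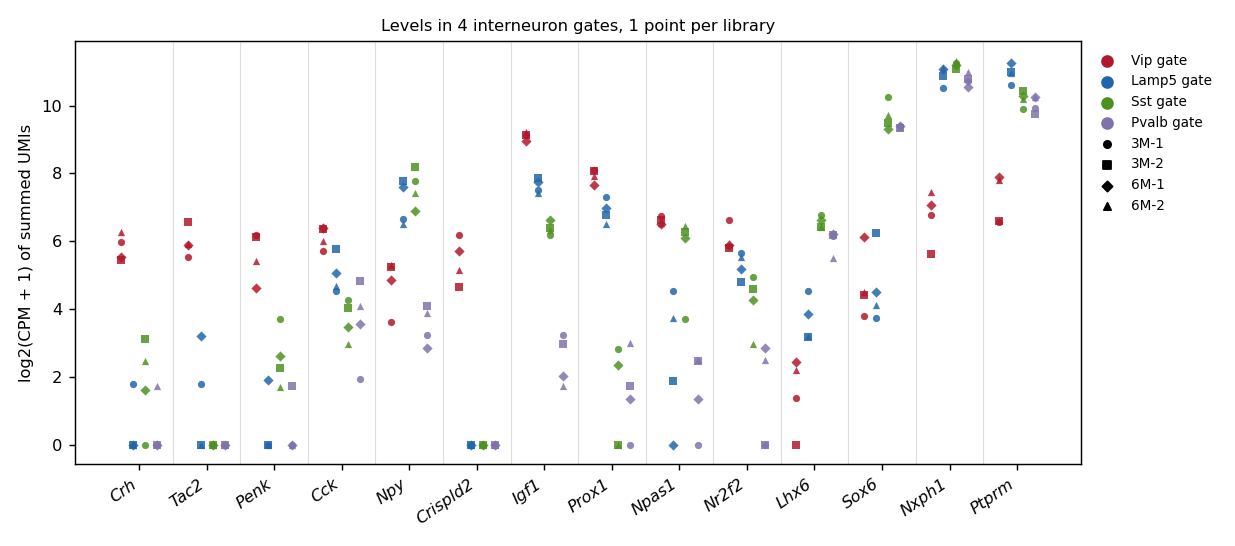
Levels of 14 genes (y axis, log2 of CPM plus 1, of UMIs summed per gate and library) in the Vip, Lamp5, Sst and Pvalb gates (colours), with 1 point per library (symbols). Crh, Tac2 and Igf1 were highest in the Vip nuclei of each library, and Nxph1 and Ptprm were lowest there, with the Vip libraries of Nxph1 between 48.6 and 176 CPM.

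The genes of the bipolar, calretinin and cholinergic Vip cells were sparse and hardly found in the other gates. Calb2 reached 36.9, 20.3, 33.8 and 47.1 CPM from 82 UMIs, with 0 UMIs in the Lamp5 and Pvalb gates and 3.13 CPM in the Sst gate. That is at least 16.2-fold higher than in Lamp5 and at least 21.8-fold higher than in Pvalb; Calb2 did not pass the filter on low counts and was not tested. Chat was at 9.64, 20.3, 11.7 and 30.8 CPM from 41 UMIs and had 0 UMIs in the other 3 gates, which puts Vip nuclei at least 8.08-fold higher than Lamp5, at least 12.3-fold higher than Sst and at least 10.9-fold higher than Pvalb. Slc5a7, the choline transporter that supplies Chat, was at 11.2, 24.3, 14.7 and 27.2 CPM. Abat, which breaks GABA down, was lower than in Pvalb (-0.89). Of 5 calcium-binding protein genes, 3 were tested and none differed from all 3 gates.

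Receptors formed the next group. Of 24 serotonin, acetylcholine and noradrenaline receptor genes, 12 were tested, and Htr2c, Htr4 and Adra1b were higher in Vip nuclei than in all 3 gates, with none lower than in all 3 (medians 0.32, 0.50 and 1.13). Htr2c, a serotonin receptor coupled to calcium release, stood at 308, 361, 319 and 270 CPM, with log2 fold changes of 3.13 ± 0.34, 1.77 ± 0.27 and 3.25 ± 0.33 against Lamp5, Sst and Pvalb. Adra1b, an alpha-1 receptor for noradrenaline, stood at 262, 205, 256 and 223 CPM (1.73 ± 0.15, 3.73 ± 0.19 and 3.94 ± 0.20). Htr4, which raises cyclic AMP, stood at 170, 190, 92.5 and 157 CPM (2.44, 2.03 and 1.74). Htr3a, the serotonin-gated channel of caudal interneurons, was too sparse for the test at 33.7, 20.3, 14.7 and 16.3 CPM. Its pooled level was 9.85 times that of Lamp5 (interval 3.18 to 49.4) and 22.5 times that of Sst (5.91 to 191), and at least 13.3-fold higher than in Pvalb. Of 23 peptide receptor genes 9 were tested (medians 0.32, -0.19 and 1.62), and Npy1r, Npy5r and Grpr were higher than in all 3 gates. These 3 receptor genes passed the filter on low counts through the Vip gate alone, so their fitted values are descriptions. Npy1r, a receptor for neuropeptide Y, was at 72.3, 97.2, 51.4 and 43.4 CPM (3.61 against Lamp5 and 3.68 against Sst, and 121 times the pooled level of Pvalb, from 1 UMI, interval 21.4 to 4822), and Npy5r, another, at 33.7, 44.6, 26.4 and 25.3 CPM (2.20 against Lamp5 and 3.02 against Sst, and 19.9 times the pooled level of Pvalb, from 3 UMIs, interval 6.57 to 98.9). Grpr, the receptor for gastrin-releasing peptide, was at 56.2, 40.5, 26.4 and 59.7 CPM (3.70 against Sst, and 62.7 times the pooled level of Lamp5, from 1 UMI, interval 11 to 2499), and it had no UMI in the Pvalb gate, so that Vip nuclei were at least 28.2-fold higher. The gene of a ligand of these receptors, Npy, was thus lower in Vip nuclei than in Lamp5 and Sst nuclei, while 2 of its receptor genes were higher.

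Among 13 genes of neuronal activity 7 were tested (medians 0.90, 0.70 and 1.86), and Igf1, Nr4a1 and Scg2 were higher in Vip nuclei than in all 3 gates. Igf1 (chr10:87858265-87937042, plus strand) stood at 556, 561, 496 and 597 CPM, a mean of 553 ± 41.8 (SD, n = 4), against 200 ± 29.0 in Lamp5, 83.1 ± 11.1 in Sst and 5.16 in Pvalb. The log2 fold changes were 1.54 ± 0.14, 2.73 ± 0.15 and 6.81 ± 0.24 (edgeR adjusted p = 1.5e-09, 1.4e-13 and 1.3e-17), and the ranges did not overlap. The members behind the list's count are not all early response genes: Nr4a1 is one, at 91.5, 93.2, 74.9 and 107 CPM (0.90, 1.11 and 2.55), but Igf1 encodes a growth factor and Scg2 a granule protein, at 62.6, 105, 51.4 and 85.1 CPM (1.45, 0.70 and 0.55).

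Of 25 ion channel genes, all tested, 2 were higher and 1 lower against all 3 gates, with medians of -0.05, -0.06 and -0.57. Kcnip1, a subunit of A-type potassium channels, was at 891, 883, 695 and 898 CPM (0.88, 0.56 and 1.06). Cacna1h, a low-threshold calcium channel, was at 28.9, 40.5, 32.3 and 39.8 CPM (1.53, 2.04 and 3.00). Cacna1a, the P/Q-type calcium channel, was lower at 552, 646, 549 and 548 CPM (-0.65, -0.91 and -1.14). Against Pvalb alone, 10 channel genes were higher and 12 lower. Nrxn2, a presynaptic neurexin gene, was higher in all 3 comparisons, at 361, 280, 311 and 282 CPM (0.95, 0.79 and 1.36), and Tenm4, a teneurin gene, was lower (-0.45, -1.01 and -1.06). Elfn1, a postsynaptic protein that shapes facilitating input, was at 106, 124, 91.1 and 95.9 CPM, higher than in Lamp5 (4.42) and Pvalb (5.49) and lower than in Sst (-0.64, edgeR adjusted p = 0.0083).

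Of 18 glutathione and antioxidant genes listed, 10 were tested, with 1 higher and 1 lower than in Lamp5, 1 and 1 against Sst, and 0 and 3 against Pvalb. These shares are near those of all genes tested (18.3%, 18.3% and 30.6%), and the medians were 0.31, -0.03 and -0.07. Slc1a1, which carries glutamate and cysteine into neurons, was lower against all 3 gates, at 59.4, 75.0, 72.0 and 76.0 CPM (-0.63, -0.49 and -0.90). Gss, the second enzyme of glutathione synthesis, was at 24.1, 50.6, 69.0 and 48.9 CPM, higher than in Lamp5 (0.81, edgeR adjusted p = 0.028) and Sst (0.75, edgeR adjusted p = 0.022) and lower than in Pvalb (-0.92). Of 14 stress genes, 13 were analysed here and 2 tested, with 0 called in edgeR against each gate. None of the 10 interferon and complement genes passed the filter on low counts.

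By a rule of size, 15 genes higher and 10 lower in all 3 comparisons were named, each in the same direction in all 4 mice by log2 CPM with a prior count of 0.5. Ndnf had 0 UMIs in both gates in 3M-1 against Sst and in 3M-1 and 3M-2 against Pvalb, and Gm47471 in 3M-1 against Sst, so that no direction was measured in these mice. Crh, Tac2, Penk, Npy1r and Grpr were among the higher. Crispld2, a secreted protein gene (chr8:119992438-120052793, plus strand), was at 72.3, 24.3, 51.4 and 34.4 CPM from 111 UMIs with none in the other 3 gates, at least 21.9-fold higher than Lamp5, at least 33.3-fold higher than Sst and at least 29.5-fold higher than Pvalb. D030055H07Rik, annotated as antisense (chr9:106148687-106160201, plus strand), was at 32.1, 48.6, 25.0 and 30.8 CPM, likewise with none in the other 3 interneuron gates and 1 UMI per library in oligodendrocyte nuclei. The strand used in counting is not given in the sources used here, so its reads and those of a partner gene cannot be told apart. Dpf3, a chromatin remodelling subunit (chr12:83213745-83487716, minus strand), was at 86.7, 70.9, 70.5 and 74.2 CPM (4.68 against Lamp5 and 4.48 against Pvalb, and 53.4 times the pooled level of Sst, from 3 UMIs, interval 18 to 261). Sema5b, an axon guidance semaphorin (chr16:35541145-35664732, plus strand), was at 223, 197, 163 and 130 CPM, against 11.8 in Lamp5, 3.34 in Sst and 4.80 in Pvalb. Also among the 15 were Fbln2 (fibulin 2) at 108, 81.0, 104 and 119 CPM, Itga4 (an integrin) at 48.2, 40.5, 27.9 and 36.2 CPM and Col15a1 (a collagen) at 51.4, 28.4, 35.2 and 32.6 CPM. Tshr, Nr2e1 and Nckap5 completed the 15. All 15 passed the filter on low counts through the Vip gate alone, so their fitted values are descriptions. Of 24 genes listed as typical of Vip cells 10 were tested (medians 2.85, 1.14 and 3.22), and Crispld2, Htr2c, Itga4 and Col15a1 were higher in all 3 comparisons. Members of this list also went the other way, as Htr1f was lower than in Lamp5 (-1.42) and Pde1a and Ptprt lower than in Sst (-2.65 and -1.72).

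Genes lower in Vip nuclei than in all 3 gates were led by Nxph1, which encodes neurexophilin, a secreted ligand of neurexins (chr6:8948431-9249032, plus strand). It stood at 109, 48.6, 132 and 176 CPM, against 1930 ± 346 in Lamp5, 2390 ± 172 in Sst and 1753 ± 221 in Pvalb. The log2 fold changes were -3.98 ± 0.19, -4.32 ± 0.19 and -3.88 ± 0.19 (edgeR adjusted p = 2.8e-14, 5.2e-15 and 7.3e-15). The ligand gene was thus lower where the receptor gene Nrxn2 was higher. Ptprm, an adhesion phosphatase (chr17:66666947-67354457, minus strand), was at 93.1, 95.2, 236 and 221 CPM, against means of 2014, 1191 and 1066 in the other gates (-3.59, -2.88 and -2.72). Ndnf, a marker of Lamp5 interneurons, had no UMI in Vip nuclei of any library against 94.8 ± 37.4 CPM in Lamp5, at least 75.0-fold lower. Its calls against Sst and Pvalb rested on a few UMIs and turned in sign when 1 Vip UMI sufficed for the gate. The call against Sst (-3.86) was lost without 6M-1 (-2.60). Without the Scrublet doublets both were lost, at -3.59 against Sst (edgeR adjusted p = 0.0509) and -2.71 against Pvalb (-3.41 with them). The call against Pvalb was also lost with any 1 library left out, with no mouse block and at 3 or more Vip UMIs. The other 7 were Mpped1, Tox3, Coro6, Mageb18, Gm47471, 7420701I03Rik and 1700016K05Rik. Gm47471 and 1700016K05Rik are annotated as antisense and lie within Ptprm, on the opposite strand. With the same limit on strand as for D030055H07Rik, their reads and those of Ptprm cannot be told apart. Without 3M-2 the calls of Mageb18 against Lamp5 (-1.38, edgeR adjusted p = 0.446) and of Gm47471 against Sst (-1.89, edgeR adjusted p = 0.195) were lost, and that of Mageb18 was also lost without 6M-2 (-2.87, edgeR adjusted p = 0.0505). With DESeq2 in place of edgeR, 196 genes were higher and 95 lower in all 3, and the calls of Crispld2 and D030055H07Rik (all 3 gates), Tac2 and Mageb18 (Lamp5) and Ndnf (Sst and Pvalb) were lost. The DESeq2 log2 values were 6.43 to 6.82 for Crispld2 and 6.06 to 6.44 for D030055H07Rik. They were 4.95 for Tac2, -2.83 for Mageb18, and -3.22 (Sst) and -2.77 (Pvalb) for Ndnf.

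**Figure D3:**
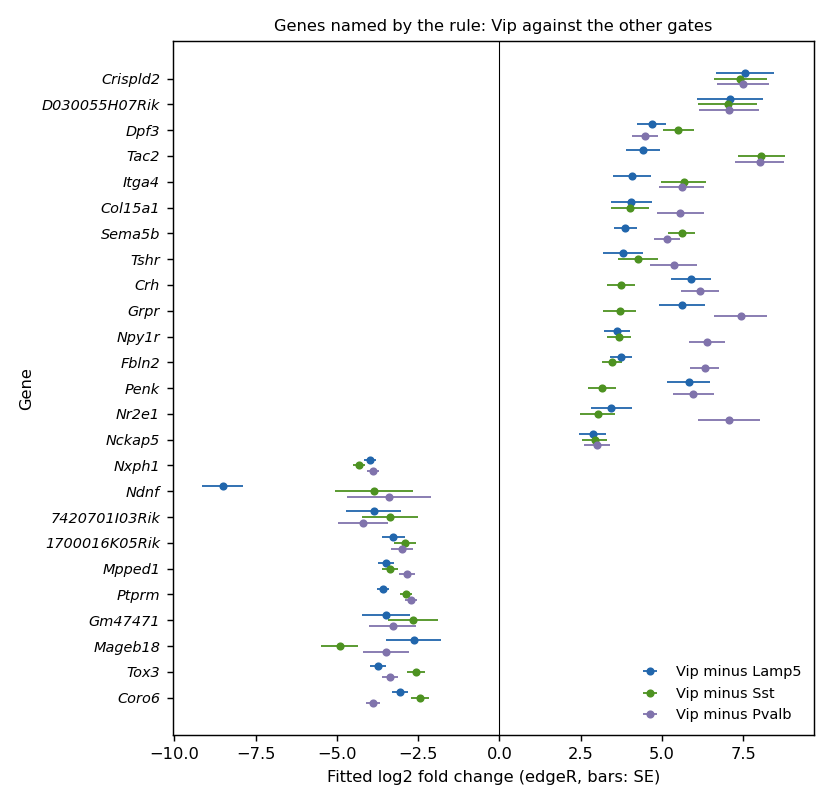
Fitted log2 fold change (x axis, edgeR, bars are SE) of the 25 genes named by the rule (y axis) in Vip nuclei minus the Lamp5, Sst or Pvalb gate (colours), over 4 libraries. Crispld2 and D030055H07Rik lie furthest right against Lamp5 but had no UMI in the Lamp5, Sst and Pvalb gates, so their fitted values depend on the prior count, and Nxph1 lies at -3.98, -4.32 and -3.88.

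Transcripts of other cell types were measured in the same nuclei. The 7 oligodendrocyte markers summed to 162, 217, 595 and 358 CPM in Vip nuclei, with Mbp most abundant and none of the 7 at 0, beside 17206, 16300, 14731 and 15043 CPM in oligodendrocyte nuclei. In 6M-1, the library with the most called doublets, the sum was highest. The 9 excitatory markers summed to 485, 423, 562 and 496 CPM, most of it Camk2a, which stood at 381, 308, 442 and 413 CPM. The 5 astrocyte markers summed to 114, 158, 210 and 185 CPM, the 6 microglial markers to 80.3, 217, 219 and 145 CPM, and the 3 markers of oligodendrocyte precursors to 9.64, 2.03, 16.2 and 21.7 CPM. The 5 vascular markers summed to 9.64, 14.2, 11.7 and 1.81 CPM with Cldn5 at 0, and the 5 striatal markers to 27.3, 18.2, 36.7 and 16.3 CPM. Against the other interneuron gates no oligodendrocyte marker was called by edgeR in any of the 3 comparisons. Of the excitatory markers 3 were tested: Rorb was higher in Vip nuclei than in all 3 gates, at 51.4, 62.8, 14.7 and 30.8 CPM, and Cux2 lower, at 27.3, 34.4, 80.8 and 30.8 CPM. The third, Camk2a, was higher than in Sst (1.05) and Pvalb (0.91) and did not pass against Lamp5 (0.46, edgeR adjusted p = 0.063). Of the 8 markers of other interneurons, Ndnf was lower in all 3, with the limits given above on its calls against Sst and Pvalb. For the astrocyte, microglial, precursor, vascular, striatal and 6 sex-linked genes no member was called in the same direction in all 3 comparisons. In single comparisons the astrocyte gene Slc1a2, a glutamate transporter, was higher than in Sst (2.80) and Pvalb (2.65) and Slc1a3, another, lower than in Lamp5 (-2.24). The astrocyte markers summed to 18.1, 30.5, 42.7 and 27.2 CPM in Sst nuclei and to 215, 212, 223 and 143 CPM in Lamp5 nuclei. Vcan was lower than in Lamp5 (-4.07), Inpp5d higher than in Sst (1.41), Rgs9 lower than in Sst (-1.85) and higher than in Pvalb (2.12), and Xist and Tsix higher than in Sst (0.47 and 0.59) and Pvalb (0.78 and 0.81). Tsix is annotated as antisense and spans Xist, so with the same limit on strand their reads cannot be told apart.

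The Vip nuclei also varied among themselves. Calb2 was found in 59 nuclei and Cck in 74, with both in 9, which is 15.3% of the Calb2 nuclei beside 26.3% of the rest. Nuclei with Calb2 and no Cck were summed per library and compared with nuclei that held Cck and no Calb2. There were 13, 8, 14 and 15 nuclei on the Calb2 side and 16, 14, 19 and 16 on the Cck side. The library 3M-2, with fewer than 10 nuclei on 1 side, was kept out of the fit, and its values were not used to choose genes. Both sides hold nuclei placed there by 1 UMI, and Cck RNA was found in 8.75% of oligodendrocyte nuclei, and the part of free RNA in the Cck side was not tested.

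Of 2422 genes tested with the mouse as a block, 75 (3.1%) were higher and 97 (4.0%) lower on the Calb2 side at an edgeR adjusted p under 0.05 (7.1% in either direction), with a median log2 fold change of 0.01 over all genes. The counts were 21 and 29 without 3M-1, 42 and 81 without 6M-1, 21 and 33 with DESeq2, and 34 and 46 with no mouse block. Sema5b was at 379, 315, 417 and 171 CPM on the Calb2 side and at 68.0, 61.6, 40.8 and 65.7 CPM on the Cck side (log2 2.43 ± 0.34, edgeR adjusted p = 1.8e-08). Nrp1, a semaphorin receptor (chr8:128358604-128503363, plus strand), was at 123, 150, 129 and 94.9 CPM and at 6.80, 24.7, 10.2 and 26.3 CPM (2.93 ± 0.61, edgeR adjusted p = 0.00025, and 0.153 without 3M-1). For both genes every Calb2 value, that of 3M-2 included, lay above every Cck value. Nrp1 had only 1, 2, 2 and 4 UMIs on the Cck side, so its fitted fold change rests on few counts. Gpc6, a glypican, was at 778, 871, 1141 and 1101 CPM against 381, 86.3, 204 and 263 CPM (1.83). Cpne4, 4930509J09Rik, Prr16, Igsf3 and Mgat4c completed the 8, with log2 values of 2.31, 2.14, 1.96, 1.88 and 1.80. In 3M-2 Prr16 went the other way, at 120 against 136 CPM. Without 3M-1 the calls of Igsf3 (2.04, edgeR adjusted p = 0.0752) and Mgat4c (2.12, edgeR adjusted p = 0.0729) were lost. Prox1 was also higher (0.93, edgeR adjusted p = 0.026), at 322, 285, 278 and 266 CPM against 163, 185, 112 and 177 CPM.

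Genes higher on the Cck side came next. Col25a1, Pde1a, Reln, Ptprm, Frem1, Cdh9 and Itga8 had from 0 to 7 UMIs per library on the Calb2 side, and Neto1 had 0, 4, 3 and 9. Their fitted fold changes thus rest on few counts and do not rank the 2 sides. Col25a1, a membrane collagen (chr3:130131501-130599877, plus strand), was at 524, 358, 352 and 538 CPM on the Cck side and at 0, 15, 19.8 and 47.5 CPM on the Calb2 side (-4.37 ± 0.41, edgeR adjusted p = 1.5e-14). Pde1a, a calcium-dependent phosphodiesterase (chr2:79834453-80129458, minus strand), was at 245, 123, 296 and 479 CPM and at 9.48, 30.0, 19.8 and 28.5 CPM (-4.10 ± 0.43, edgeR adjusted p = 8.4e-13). Reln, the secreted glycoprotein reelin (chr5:21884454-22344702, minus strand), was at 258, 333, 173 and 355 CPM and at 19.0, 0, 29.8 and 0 CPM (-3.95 ± 0.49, edgeR adjusted p = 3.2e-10). The 2 sides did not overlap in any library for these 3 genes. Ptprm, low in Vip nuclei as a whole, was at 150, 160, 526 and 295 CPM on the Cck side against 0, 0, 29.8 and 56.9 CPM (-3.45 ± 0.42). Frem1, Cdh9, Itga8 and Neto1 completed the 8, with log2 values of -3.07, -2.97, -2.95 and -2.88. The call of Cdh9 was lost without 3M-1 (-2.51, edgeR adjusted p = 0.141). Of the adhesion list 19 genes were tested, with Lrrtm4 higher on the Calb2 side (0.53) and 5 higher on the Cck side: Nrg1, Cntnap4 (-2.46), Cntnap5a (-0.92), Tenm4 (-0.89) and Nrxn3 (-0.66). Nrg1, which encodes the neuregulin ligand of Erbb4, was at 1346, 579, 1209 and 1162 CPM on the Cck side and at 389, 195, 99.2 and 161 CPM on the Calb2 side (-2.63, edgeR adjusted p = 1.7e-14). Necab1, a calcium-binding protein gene, was higher on the Cck side (-1.91, edgeR adjusted p = 8e-08), as were the acetylcholine receptor gene Chrna7 (-1.08) and Htr2c (-0.83). Mbp was higher on the Calb2 side (1.55, edgeR adjusted p = 0.01); this myelin gene belongs to another cell type, and its part in the split was not tested. Depth also differed, since the Calb2 side held 105430, 66608, 100769 and 105362 UMIs and the Cck side 147063, 81108, 195985 and 152288.

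**Figure D4:**
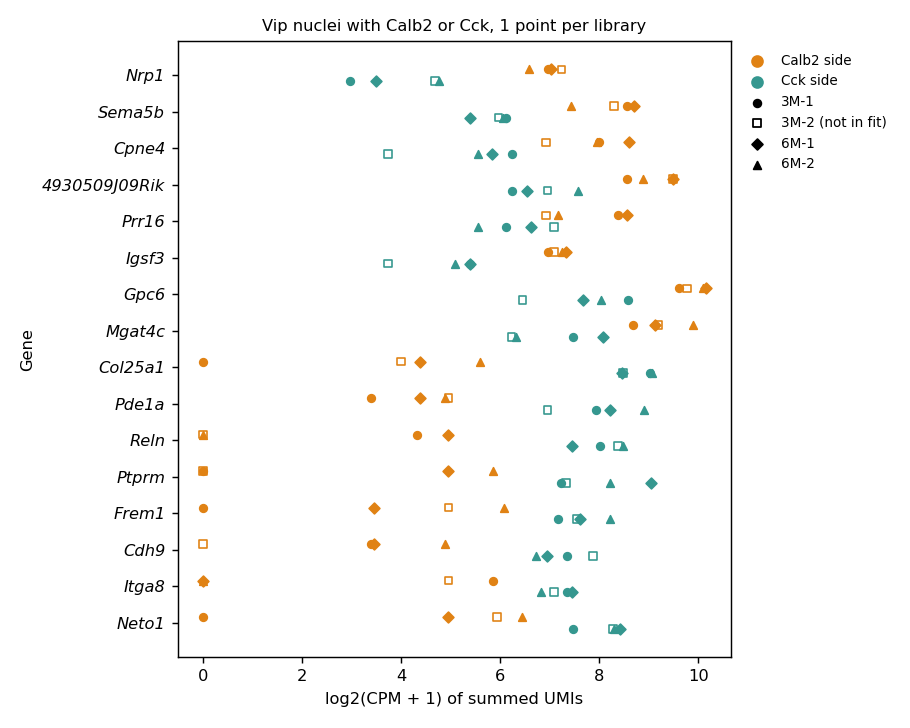
Levels (x axis, log2 of CPM plus 1, of UMIs summed per side and library) of the 16 genes named by the rule (y axis) in Vip nuclei with Calb2 and no Cck (orange) or Cck and no Calb2 (teal), with 1 point per library. Open squares are 3M-2, which was not in the fit; it follows the other libraries in 15 of 16 genes, the exception being Prr16.

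Finally, Vip nuclei were compared between 6 and 3 months, with 2 mice at each age. Of 8039 genes, edgeR called 0 at an adjusted p under 0.05 (0.0%), 490 (6.1%) had an unadjusted p under 0.05, and DESeq2 called 0 as well. The median log2 fold change over all genes was 0.00778. In 1433 genes (17.8%) the 6-month libraries were both higher than either 3-month library, and in 1390 (17.3%) both were lower. With the labels' batch number as a block, 3 genes were called higher and 3 lower, Ptprm, Prr5l, Meis2, Plpp4 and Pde3a among them. With no filter on low counts 23 were called higher and 6 lower, and without 3M-2 86 and 23.

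The 6 genes with the smallest p were looked at one by one. None passed the threshold with all 4 libraries, the filter on low counts and no block, while all 6 passed with no filter and all 6 without 3M-2 (edgeR). Ptprm was at 93.1, 95.2, 236 and 221 CPM (log2 1.28 ± 0.20, edgeR adjusted p = 0.251). Its UMIs came from 12, 15, 21 and 15 nuclei, and 1 nucleus of 6M-1 alone held 61 of 161. Meis2, a homeobox gene listed here with markers of other interneurons (chr2:115863064-116065839, minus strand), was at 0, 4.05, 32.3 and 41.6 CPM (4.19 ± 0.75, edgeR adjusted p = 0.276), from 0, 2, 7 and 11 nuclei. In oligodendrocyte nuclei Meis2 was at 56.2, 72.2, 115 and 89.0 CPM, and the part of their RNA in its level was not tested. Prr5l, one of the oligodendrocyte markers (chr2:101714285-101883027, minus strand), was at 4.82, 14.2, 77.8 and 48.9 CPM (2.79 ± 0.48, edgeR adjusted p = 0.274), from 1, 4, 11 and 5 nuclei. These 3 genes were carried by a minority of the Vip nuclei. In the other direction, Plpp4, a lipid phosphatase (chr7:129257031-129391412, plus strand), was at 263, 221, 125 and 94.1 CPM (-1.14 ± 0.22, edgeR adjusted p = 0.324). Gm11817, annotated as antisense (chr4:9431961-9447199, minus strand), was at 125, 140, 54.3 and 63.4 CPM, with the same limit on strand (-1.17 ± 0.24). Pde3a, a phosphodiesterase of cyclic AMP (chr6:141249269-141507448, plus strand), was at 165, 97.2, 48.5 and 48.9 CPM (-1.45 ± 0.30). Its UMIs came from 29, 15, 13 and 14 nuclei, so Pde3a too was carried by a minority of the Vip nuclei. Those of Plpp4 came from 41, 33, 34 and 26 nuclei and those of Gm11817 from 40, 39, 22 and 26. In all 6 genes the ages did not overlap, as in the 17.8% and 17.3% of all genes counted above.

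Doublets moved with part of these values. The 5 oligodendrocyte markers tested were all positive, with a median log2 fold change of 1.49, and none was called in edgeR with all 4 libraries, the filter and no block. Prr5l was called with the block (edgeR adjusted p = 0.0175), with no filter (1.2e-05), without 3M-1 (0.0394), without 3M-2 (9e-07) and without 6M-2 (4.5e-06). Without the nuclei that Scrublet marked, the 7 markers summed to 71.0, 126, 82.3 and 85.9 CPM, so that the 6-month libraries no longer stood above both 3-month libraries. Prr5l was then left with 0, 3, 1 and 1 UMIs, and Meis2 with 0, 1, 8 and 15. Ptprm was at 82.9, 60.5, 270 and 121 CPM without them (1.44, edgeR adjusted p = 0.546), so its direction was the same.

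**Figure D5:**
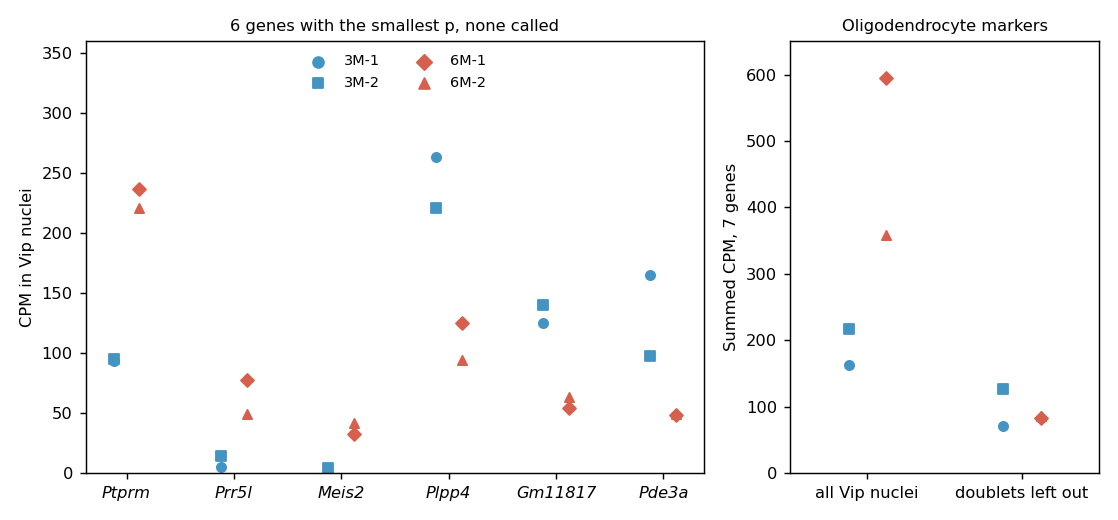
Left, CPM (y axis) in the Vip nuclei of each library for the 6 genes with the smallest p between ages; right, summed CPM of 7 oligodendrocyte markers in Vip nuclei with and without Scrublet doublets. Blue symbols are 3-month and red symbols 6-month libraries, 1 point per library; the sums of 595 and 358 CPM at 6 months drop to 82.3 and 85.9 CPM without doublets, where the 2 red symbols nearly coincide.

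The genes higher in Vip nuclei were not called between ages with all 4 libraries, the filter and no block. The levels of Crh, Tac2, Cck and Igf1 given above overlapped between ages. Prox1, Sema5b, Npy1r, Npy5r, Rorb and Penk were among those lower in both 6-month than in both 3-month libraries, and Nr2e1 was higher in both, without passing the test, beside 17.3% and 17.8% of all genes tested. Penk had a log2 value of -1.14 with an unadjusted edgeR p of 0.0047. Gclc differed by -0.03. Of the 10 glutathione and antioxidant genes tested 0 were called in edgeR, with a median of 0.15, and of the 3 stress genes tested 0. In none of the lists named above was a gene called between ages with all 4 libraries, the filter and no block, while Prr5l and Meis2 were called with the block, with no filter and without 3M-2. A test of whether the age difference in Vip nuclei differed from the mean age difference in the Lamp5, Sst and Pvalb gates called 0 of 8919 genes in edgeR (0.0%), with 486 (5.45%) at an unadjusted p under 0.05. The smallest adjusted p belonged to 4930445B16Rik, a long noncoding RNA gene (chr2:96987018-97083561, minus strand), at 0.0997 in edgeR with a log2 difference of -1.53 ± 0.29. Next on the side of the higher values were Gm43915 (2.27), Ptprm (1.00), Meis2 (4.48), Fhit (1.74) and Rarb (2.40), and on the side of the lower values Adam12 (-1.99), Trpc6 (-1.51), Heatr6 (-1.49) and Bcl2 (-1.13), none of which passed here. 4930445B16Rik was called at 3 or more Vip UMIs (edgeR adjusted p = 0.0383) and with no filter on low counts (9e-04), and Meis2, Rarb and Adam12 were called with no filter.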

How the data were processed

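Cortical nuclei of 4 GCLC-KO mice were measured by single-nucleus RNA sequencing. The deposited matrices hold unnormalized UMI counts of each gene in each nucleus, made with Cell Ranger 7.0.0 per the file headers; the labels name mm10, and the annotation and strand setting are not given in the sources used here. The study removed nuclei with over 7000 detected genes or over 1% mitochondrial transcripts, and the same filter left 30515 nuclei here, 1 fewer than the study gives. Filtered nuclei held 63194878, 62574289, 65894316 and 59262228 UMIs in the 4 libraries, in the order of the text. The members and the gene lists were chosen with earlier results of these data known.

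Gates were set per nucleus: Sst, 3 or more UMIs of Sst; Pvalb, 2 or more of Pvalb and fewer than 3 of Sst; Lamp5, 2 or more of Lamp5 with Adarb2, fewer than 3 of Sst and fewer than 2 of Pvalb. All 3 held fewer than 2 UMIs of Vip. Oligodendrocyte nuclei held 3 or more UMIs of St18, Mog and Prr5l together and no Gad1, Gad2 or Slc17a7. UMIs were summed per gate and library, scaled with TMM, filtered with filterByExpr and tested with edgeR 4.0.16 (quasi-likelihood test, Benjamini-Hochberg adjustment over all genes tested) in R 4.3.3. Genes used by a gate were left out of the tests and kept in library sizes. DESeq2 1.42.0 was the alternative tool, and Scrublet in scanpy 1.11.5 called doublets, which the main analysis kept. The test script was checked on simulated counts. Nuclei are not replicates; each library is 1 mouse.

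The genes named were, by rule, up to 15 higher and 10 lower in all 3 gate comparisons with the same direction in every mouse (by log2 CPM with a prior count of 0.5, also where both gates were at 0), 8 per side of the Calb2 and Cck split, the 3 with the smallest p in each direction between ages, and 5 in each direction for age by gate, beside the listed genes. The split was planned at 2 or more UMIs and left fewer than 10 nuclei per side, so the split at 1 or more of one and 0 of the other is reported, over 3 libraries. The labels' batch number equals the replicate number; deviations of same-numbered libraries correlated at -0.0714 over 8043 genes. Of 32285 gene identifiers, 32158 were matched to GENCODE M21 (GRCm38), among them all 305 named or listed, and coordinates come from that match. Intervals of shares are Wilson 95% intervals, and those of ratios of pooled levels are exact (Clopper-Pearson) 95% intervals; both cover counting error only. Some results are not reported here.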

Additional observations from a re-analysis of the deposited data

How the results depend on the processing

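The share of Vip nuclei differed between ages by -1.91 to 0.661 percentage points when each library was left out in turn, and turned in direction without 6M replicate 1 (0.661). With no filter on low counts 23 genes were called higher and 6 lower at 6 months, and leaving out a library gave 0 to 86 higher and 0 to 23 lower: 7 and 7 without 3M-1, 86 and 23 without 3M-2, 0 and 0 without 6M-1, 23 and 10 without 6M-2. A lone library was then assumed to vary like the other age. The replicate block gave 3 higher and 3 lower between ages, and in age by gate, in place of the mouse block, 0 and 0. Age by gate gave 7 and 4 without the filter, 0 and 1 at 3 or more Vip UMIs, and 0 to 3 higher and 0 lower with a library left out (3 without 6M-2).

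For the gate comparisons DESeq2 called 196 genes higher and 95 lower in all 3, of which 174 and 92 were also called by edgeR, and leaving out a library gave 199 to 231 higher and 99 to 134 lower. DESeq2 did not call Crispld2 and D030055H07Rik against any gate, Tac2 (adjusted p = 0.18) and Mageb18 (0.0626) against Lamp5, and Ndnf against Sst (0.0894) and Pvalb (0.15); the cause was not tested. The split gave 21 and 33 with DESeq2, 34 and 46 with no mouse block, 51 and 101 without the filter, and 21 to 53 and 29 to 81 with a fitted library left out. Without 3M-1 the calls of Nrp1, Igsf3, Mgat4c and Cdh9 were lost, at log2 values of 2.62, 2.04, 2.12 and -2.51. At 2 or more UMIs the split could not be fitted. Single values that turned were Gclc 6M minus 3M (0.0718 without 3M replicate 1, 0.0946 without 6M replicate 1, and -0.157 to 0.0946 over the 4 libraries left out) and Ndnf at 1 or more Vip UMIs (1.15 against Sst, 1.61 against Pvalb). Of single gene values in the gate comparisons 774 kept direction and call, 22 lost the call and 2 turned.

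With 306 nuclei, folds over a gate with 1 to 3 UMIs have wide counting intervals, and the Sst gate of 3M-1 rests on 11 nuclei.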

Other observations

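Several peptide genes were found together or apart in single Vip nuclei, given here as counts of nuclei with a UMI and with no test, since detection rises with depth. Crh and Tac2 were found together in 33 nuclei, and Tac2 was found in 37.9% of the nuclei with Crh and in 23.3% of the rest. Tac2 and Penk were found together in 11 nuclei, with Penk in 13.1% of the nuclei with Tac2 and in 26.6% of the rest. Calb2 and Crh were found together in 11, with Crh in 18.6% of the nuclei with Calb2 and in 30.8% of the rest. Calb2 and Chat were found together in 10, with Chat in 16.9% of the nuclei with Calb2 and in 7.29% of the rest. In other pairs the shares lay closer, with Penk in 21.8% of the nuclei with Crh and 23.3% of the rest and in 23.7% and 22.7% with and without Calb2, Htr3a in 15.3% and 11.3% with and without Calb2, and Tac2 in 22% and 28.7%.

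Spread between nuclei was measured as the variance of a gene's UMIs over that expected from its mean and each nucleus's depth, within each library. Over 9830 genes with a UMI in at least 20 nuclei the median ratio was 1.11. This ratio rises with a gene's level. The lowest of the 4 library ratios was highest for 4 genes found in nearly all nuclei, Adarb2 (46.6, a gene of the rule), Malat1 (38.8), Cntnap2 (26.6) and Kcnip4 (26.1). Among genes found in fewer nuclei it was 15.7 for Kirrel3, an adhesion gene found in 183 nuclei, 12.5 for Nrg1 in 178, 10.6 for Cadps2, a gene of granule release, in 89, and 9.84 for Clstn2, a synaptic calsyntenin, in 218. Trpm3, a cation channel gene, reached 8.51 in 143 nuclei and Grm8, a glutamate receptor gene, 7.96 in 169. Mbp reached 9.13 in 62 nuclei. Per mean UMI, the mean excess over 1 was 0.553 for Adarb2, 0.131 for Malat1 and 0.691 for Cntnap2, but 14.6 for Mbp, 14.1 for Col25a1, 9.38 for Cadps2 and 3.72 for Nrg1, so that the order depends on this scaling. Kirrel3, Nrg1, Cadps2, Clstn2 and Trpm3 were also higher on the Cck side of the split, with log2 values of -1.80, -2.63, -2.30, -0.88 and -1.21, and Grm8 was higher on the Calb2 side (0.98). The same nuclei gave both measures.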
